A study of Mus musculus with 24 samples.

Results

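The miR-200 family was followed across mouse colon mucosa and colon tumours through its 5 probes, mmu-miR-200a, mmu-miR-200b, mmu-miR-200c, mmu-miR-141 and mmu-miR-429 (the species prefix is dropped below), taken by name from the 566 mouse miRNA probes of a NanoString nCounter panel. This assay counts probes that have bound single RNA molecules, without amplification. The 24 libraries came from 2 models of colon tumours. APC libraries were 6 of normal mucosa and 5 of tumours and carry the genotype label APC. The design text names the mice APC;CpC, a line in which a Cre recombinase driven by a CDX2 promoter targets the tumour suppressor gene Apc in intestinal epithelium. AOM-DSS libraries were 7 of normal mucosa and 6 of tumours from mice given the carcinogen azoxymethane and dextran sulphate sodium, which injures the colon lining and causes colitis. The normal tissue is described as matched, and normal and tumour libraries of a model therefore share its genotype or treatment. The labels and design text give no strain, age, dose or interval after treatment, and the labels name formalin-fixed tissue while the design text names frozen tissue.

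MicroRNAs of the miR-200 family are made by epithelial cells. They bind messenger RNAs of ZEB1 and ZEB2, transcription factors that repress the adhesion gene for E-cadherin, and ZEB1 and ZEB2 in turn repress both gene clusters of the family. Through this mutual repression the family is known as a guard of the epithelial state against epithelial-mesenchymal transition, the loosening of epithelial cells into migratory ones.

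The members differ in which targets they can bind, and for this reason their mature sequences are shown, from RefSeq on GRCm38.p6, 5′ to 3′, with the seed (bases 2 to 8) in capitals. All 5 probes matched a RefSeq entry; the probes carry older names with no arm, and the 3p form is shown.
miR-200b: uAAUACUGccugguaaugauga
miR-200c: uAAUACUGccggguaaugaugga
miR-429: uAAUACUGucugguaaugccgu
miR-200a: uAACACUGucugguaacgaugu
miR-141: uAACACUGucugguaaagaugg
The first 3 share the seed AAUACUG and the other 2 the seed AACACUG, which differ at 1 base, and no other mature mouse miRNA in the RefSeq table has either seed. Within a seed group, miR-200b and miR-200c differ at 2 of their first 22 positions, as do miR-200a and miR-141, while miR-429 differs from miR-200b at 4.

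Seed and genome position cut across each other. The hairpins of miR-200b, miR-200a and miR-429 lie on the minus strand of chr4:156053905-156055750, a span of 1846 bp. Those of miR-200c and miR-141 lie on the minus strand of chr6:124717914-124718390, a span of 477 bp. Each cluster thus holds members of both seed groups, and a change shared by a cluster can be set against a change shared by a seed.

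Library totals over the mouse miRNA probes ran from 47235 in AOM-DSS normal 7 and 134680 in APC tumour 1 to 329346, with a median of 251263.5. All 5 members were counted in all 24 libraries at 11.2 times or more the background, set per library at the mean plus 2 SD of 33 probes for viral miRNAs, and all 5 passed the filter on low counts. All APC libraries ran on cartridge 1, the AOM-DSS normal libraries and AOM-DSS tumours 1 and 2 on cartridge 2, and AOM-DSS tumours 3 to 6 on cartridge 3, so that model and cartridge cannot be told apart. The muscle-associated miR-143 and miR-145 together held 15.2 to 23.3% of the counts in APC normal mucosa and 1.60 to 2.93% in APC tumours, and 12.2 to 15.8% against 1.76 to 4.95% in the AOM-DSS model. Levels are therefore given as CPM, the count relative to a library total scaled by the TMM method, which assumes that most miRNAs are equal between libraries. Whether the replicates were separate animals is not stated, so p-values measure the spread between these libraries. In bulk tissue, fewer cells of a type and less RNA per cell cannot be told apart.

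Of the raw counts, without that scaling, the 5 members together held 5.28% ± 0.461 (SD, n = 6) in APC normal mucosa and 7.44% ± 0.720 (n = 5) in APC tumours. In the AOM-DSS model they held 4.73% ± 0.780 (n = 7) in normal mucosa and 6.86% ± 0.501 (n = 6) in tumours. The share was higher in every tumour library than in every normal library of its model. With unadjusted totals the median log2 fold change of all 563 miRNAs was itself 0.69 in APC tumours and 0.305 in AOM-DSS tumours. A higher share of the raw counts is therefore not particular to the family. Of the counts outside miR-720, miR-143 and miR-145, the members held 9.46% ± 0.610 in APC normal mucosa and 8.83% ± 0.769 in APC tumours, which overlapped. On that base they held 7.40% ± 0.714 in AOM-DSS normal mucosa and 9.25% ± 0.481 in AOM-DSS tumours, which did not overlap. The probe of miR-720 gave 24.01 to 26.01% of the counts in APC normal mucosa and 8.36 to 21.4% in APC tumours. The higher share in APC tumours thus depended on the counts taken as its base. How often other miRNAs separated tumour from normal on these bases was not counted.

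**Figure D1:**
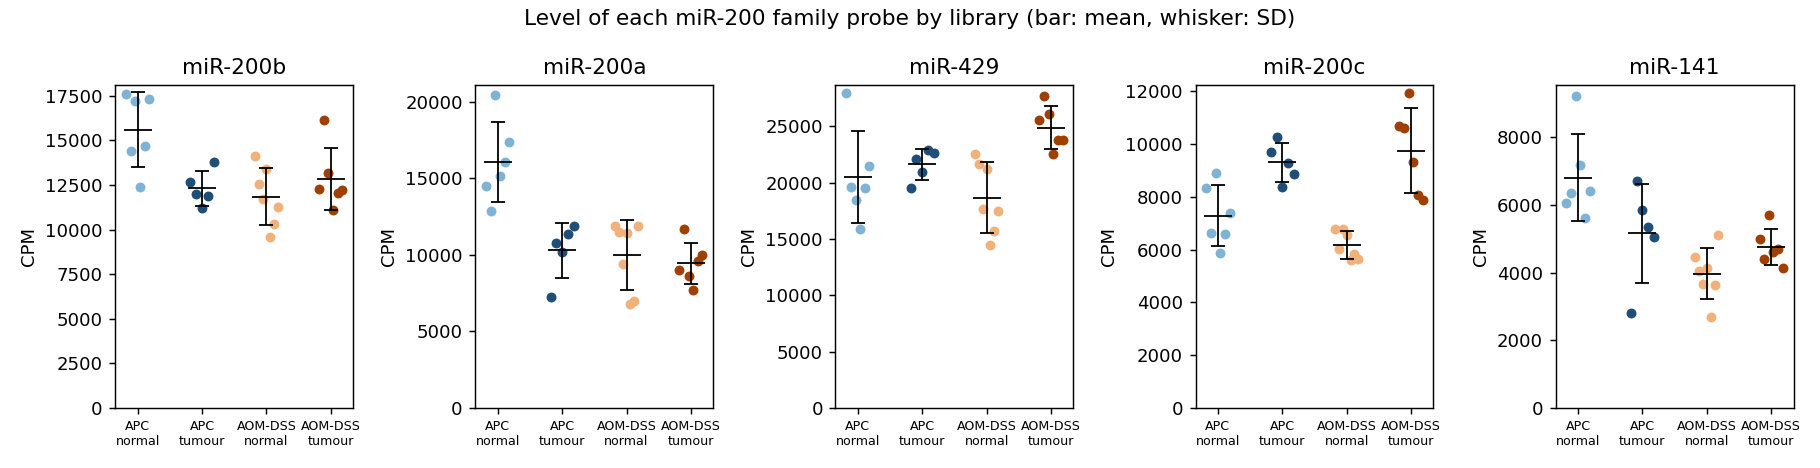
Level of each member (y axis, CPM after TMM scaling, linear from 0) in the 24 libraries, by group; points are libraries, bars the mean and whiskers the SD. The miR-200a points of APC normal mucosa lie above those of APC tumours, and the miR-200c points of AOM-DSS tumours lie above those of AOM-DSS normal mucosa.

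The comparison of APC tumours with APC normal mucosa asked how the family stood in tumours that begin with loss of Apc. The family did not move as a block. miR-200a and miR-200b fell, miR-200c rose, and miR-429 and miR-141 did not pass the test. Thus 3 of 5 members were called at an adjusted p under 0.05 in edgeR's quasi-likelihood test, where 21.8% of the 563 miRNAs tested were called. The median log2 fold change of the members was -0.34, beside 0.04 for all miRNAs tested.

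miR-200a, of the seed AACACUG, ran from 12845 to 20405 CPM in APC normal mucosa with a median of 15595. In tumours 1 to 5 it was 7262, 10775, 10159, 11334 and 11844 CPM. All tumours lay below all normal libraries, tumour 1 lowest, a separation seen for 13% of all miRNAs tested. The log2 fold change was -0.64 ± 0.16 (SE; adjusted p = 0.0018), a level 1.56-fold lower. miR-141, which shares that seed but lies in the other cluster, ran from 5623 to 9222 CPM in normal mucosa with a median of 6380. In tumours 1 to 5 it was 2803, 6714, 5859, 5357 and 5055 CPM. The groups overlapped, with 3 of 5 tumours below all normal libraries, and the log2 fold change of -0.40 ± 0.17 did not pass (adjusted p = 0.0856; 95% interval -0.72 to -0.075).

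miR-200b, the neighbour of miR-200a on chromosome 4, ran from 12400 to 17585 CPM in normal mucosa with a median of 15955. In tumours 1 to 5 it was 12670, 12000, 11216, 11870 and 13791 CPM. The groups overlapped, and 3 of 5 tumours lay below all normal libraries. Its fall of -0.34 ± 0.13 on the log2 scale lay just inside the threshold (adjusted p = 0.0492). miR-429, the third of this cluster, ran from 15854 to 28004 CPM in normal mucosa with a median of 19559, and was 19546, 22068, 20964, 22901 and 22621 CPM in tumours 1 to 5. All tumours lay within the range of the normal libraries, and the log2 fold change was 0.08 ± 0.13 (adjusted p = 0.749; 95% interval -0.18 to 0.34).

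miR-200c, which shares the seed of miR-200b and the cluster of miR-141, ran from 5861 to 8903 CPM in normal mucosa with a median of 7004. In tumours 1 to 5 it was 9711, 10266, 8369, 9287 and 8880 CPM. The groups overlapped, but 3 of 5 tumours lay above all normal libraries. This 1.28-fold rise was 0.35 ± 0.13 in log2 units (adjusted p = 0.041).

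The directions are relative to most miRNAs and depend on the scaling. With unadjusted library totals the median of all miRNAs moved to 0.69 and miR-200b to 0.34 (adjusted p = 0.0183), miR-200a to 0.00 and miR-141 to 0.23. Leaving out 1 library at a time ended the call of miR-200b in 17 of 24 cases (without APC normal 2, 3, 5 or 6, APC tumour 2, 3 or 4, AOM-DSS normal 2, 3, 4, 5 or 7, or AOM-DSS tumour 1, 3, 4, 5 or 6; adjusted p up to 0.12), ended that of miR-200c in 10 (without APC normal 1, 2, 4, 5 or 6, APC tumour 1, 2 or 4, AOM-DSS normal 5 or AOM-DSS tumour 4; up to 0.117), and brought in miR-141 without APC normal 1 (-0.50, adjusted p = 0.0299) or APC tumour 2 (-0.51, 0.0316). Without APC tumour 1, the second shallowest library, miR-141 was at -0.24 (adjusted p = 0.283). miR-200a kept its call in all 24 omissions and lost it scaled to the 4 mRNA probes (-0.60, 0.083) or with limma on the authors' scaled values (-0.41, 0.0726).

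In the AOM-DSS model the same comparison concerned tumours that arise after a carcinogen and colitis. miR-200c and miR-429 rose, and miR-200a, miR-200b and miR-141 did not pass the test. With 2 of 5 members called, the background was 17.1% of all miRNAs tested. The members' median log2 fold change was 0.27, beside 0.07 for all miRNAs.

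miR-200c ran from 5606 to 6791 CPM in AOM-DSS normal mucosa with a median of 6022, and from 7895 to 11926 CPM in the tumours with a median of 9955. All 6 tumours lay above all 7 normal libraries, a separation seen for 9.24% of all miRNAs tested. This 1.58-fold rise was 0.66 ± 0.12 in log2 units (adjusted p = 4.43e-05). miR-429 ran from 14443 to 22582 CPM in normal mucosa with a median of 17618, and from 22509 to 27674 CPM in the tumours with a median of 24671. The groups touched, with 5 of 6 tumours above all normal libraries, and the rise was 0.41 ± 0.12 (adjusted p = 0.0123).

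The third miRNA with the seed AAUACUG, miR-200b, ran from 9602 to 14123 CPM in normal mucosa with a median of 11730 and from 11118 to 16164 CPM in the tumours with a median of 12250. Only tumour 2 lay above all normal libraries, and the log2 fold change was 0.11 ± 0.12 (adjusted p = 0.581; 95% interval -0.11 to 0.34). miR-200a ran from 6748 to 11901 CPM in normal mucosa with a median of 11423 and from 7707 to 11699 CPM in the tumours with a median of 9294. All tumours lay within the normal range, and the log2 fold change was -0.08 ± 0.14 (adjusted p = 0.809; 95% interval -0.36 to 0.20). miR-141 ran from 2694 to 5119 CPM in normal mucosa with a median of 4037 and from 4141 to 5689 CPM in the tumours with a median of 4663. The groups overlapped, and the log2 fold change was 0.27 ± 0.15 (adjusted p = 0.272; 95% interval -0.03 to 0.57).

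The rise of miR-429 was the less firm of both calls. It did not pass without APC normal 1 (0.30, adjusted p = 0.0607) or AOM-DSS normal 5 (0.38, adjusted p = 0.0686), and scaling to the 4 mRNA probes, which moved the median of all miRNAs to -0.40, turned it to -0.08 and brought miR-200c to 0.16 (adjusted p = 0.539). On cartridge 2 and without cartridge 3, 2 AOM-DSS tumours remained, and miR-429 was at 0.47 ± 0.20 (adjusted p = 0.141).

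**Figure D2:**
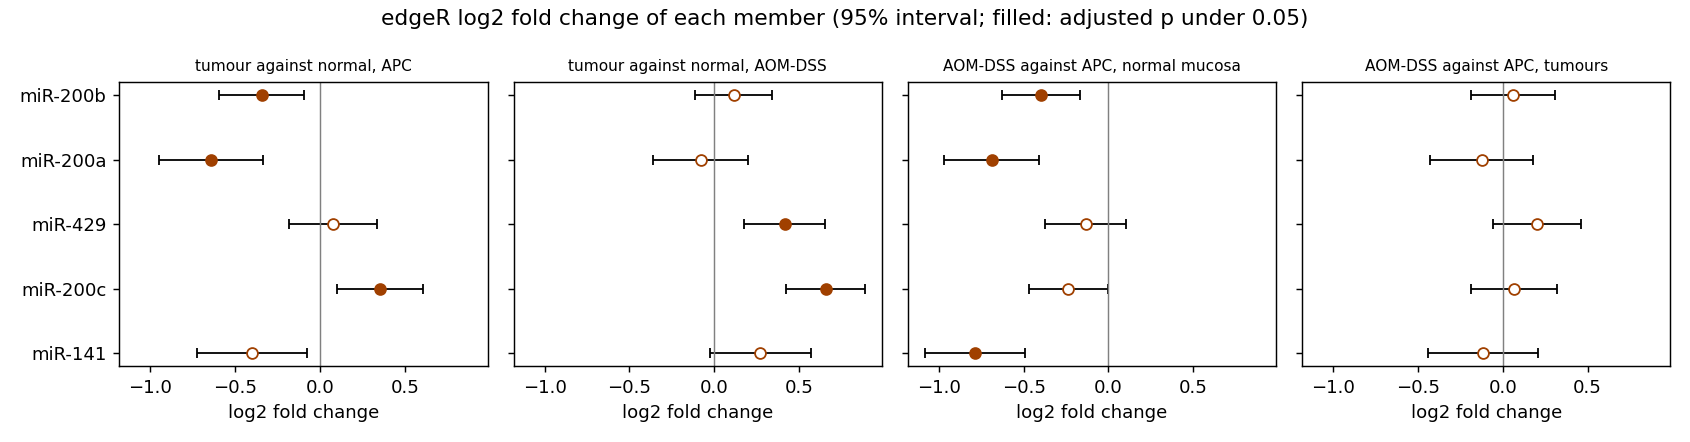
Log2 fold change of each member (x axis) in 4 comparisons, with its 95% interval; filled points have an adjusted p under 0.05 in edgeR's quasi-likelihood test. miR-200c lies above 0 in both tumour comparisons, and miR-200a and miR-141 lie lowest in the comparison of normal mucosa.

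The tumour effect of all 5 members was the more positive in the AOM-DSS model under TMM scaling. Scaled to the 4 mRNA probes this turned for miR-200b, miR-429 and miR-200c (-0.08, -0.23 and -0.25), where the median of all miRNAs was -0.46. With unadjusted totals it turned for miR-429 and miR-200c (-0.09 and -0.14), where that median was -0.35. Measured from the median of all miRNAs, these members stayed above 0 over 7 scalings. They ran from 0.35 to 0.40 for miR-200b, 0.22 to 0.28 for miR-429 and 0.19 to 0.25 for miR-200c. Under TMM scaling 0 of 5 differences passed the test of the difference itself in edgeR, where 6.75% of all miRNAs were called. There miR-141, miR-200a and miR-200b had an unadjusted p under 0.05. For miR-141 the difference between the tumour effects, AOM-DSS minus APC, was 0.67 ± 0.22 on the log2 scale (adjusted p = 0.0617; 95% interval 0.23 to 1.11). It passed in 7 of 14 alternatives, among them DESeq2 (0.65, adjusted p = 0.046) and totals without miR-720, miR-143 and miR-145 (0.68, adjusted p = 0.0237), and without APC tumour 2 (0.78, adjusted p = 0.0379) or AOM-DSS normal 7 (0.74, adjusted p = 0.0342). For miR-200a the difference was 0.56 ± 0.21 (adjusted p = 0.106), and it passed in 2 of 14 alternatives, with a filter at the viral background (0.51, 0.0487) and with the same reduced totals (0.57, 0.0327). For miR-200b it was 0.46 ± 0.17 (adjusted p = 0.108). The values were 0.34 ± 0.18 for miR-429 and 0.30 ± 0.17 for miR-200c (adjusted p = 0.281 and 0.322).

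**Figure D3:**
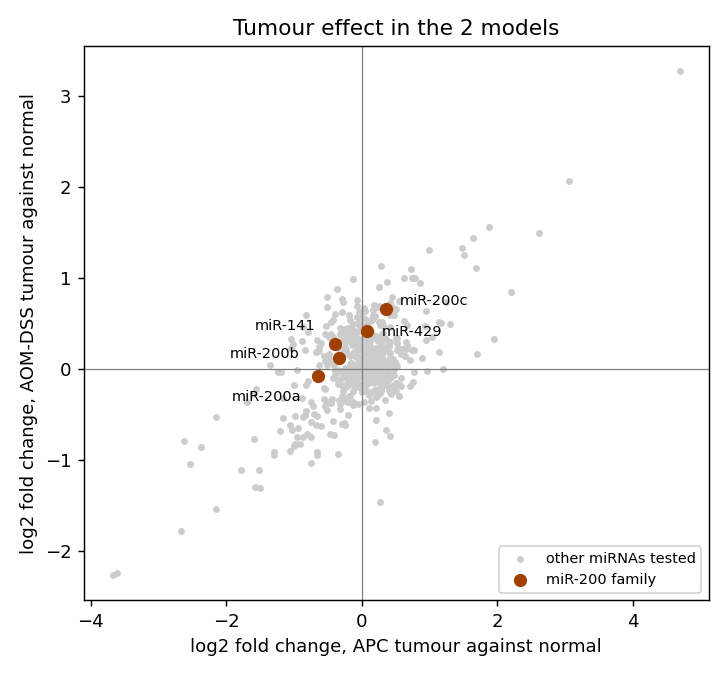
Log2 fold change of tumour against normal in the APC model (x axis) and the AOM-DSS model (y axis) for the 563 miRNAs tested; grey points are other miRNAs and brown points the family. The members lie near the centre of the cloud, with miR-200c at 0.35 and 0.66 and miR-200a at -0.64 and -0.08.

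The normal mucosa of the models was compared because the tumour effects are measured against it. miR-141, miR-200a and miR-200b were lower in AOM-DSS than in APC normal mucosa. miR-141 differed by a log2 fold change of -0.79 ± 0.15 (adjusted p = 0.00104), and all 7 AOM-DSS libraries, at most 5119 CPM, lay below all 6 APC libraries, at least 5623 CPM. miR-200a was likewise lower, at -0.69 ± 0.14 (adjusted p = 0.00258), with at most 11901 CPM in AOM-DSS and at least 12845 CPM in APC normal mucosa. Their p-values ranked 4 and 5 among the 563 miRNAs. Groups that do not overlap were seen for 2.13% of all miRNAs tested.

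miR-200b was lower too, at -0.40 ± 0.12 (adjusted p = 0.0485), with 4 of 7 AOM-DSS libraries below all APC libraries. Thus 3 of 5 members were called, where 3.37% of all miRNAs were. That share is taken over many probes near background. With a filter at the viral background, 35 of the 226 miRNAs kept passed in this comparison, a larger share. miR-200c and miR-429 did not pass, at -0.24 ± 0.12 (adjusted p = 0.328) and -0.13 ± 0.12 (adjusted p = 0.649). miR-141 and miR-200a kept their calls in all 24 omissions of 1 library, whereas miR-200b lost its call in 19 (it held only without AOM-DSS tumour 1 or 2, AOM-DSS normal 1, APC tumour 1 or APC normal 4; adjusted p up to 0.196). Scaled to the 4 mRNA probes, where 4 miRNAs passed in all, neither miR-141 nor miR-200a did (-0.71 and -0.63, adjusted p = 0.175 and 0.178). The cartridge moves with the model here, and its part in the result was not tested.

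Between the tumours of the models no member passed, where 8.7% of all miRNAs were called (edgeR; at an unadjusted p under 0.05 the count of members was also 0, and with DESeq2 it was 0). The log2 fold changes, AOM-DSS against APC, were 0.20 ± 0.13 for miR-429, 0.07 ± 0.13 for miR-200c, 0.06 ± 0.13 for miR-200b, -0.12 ± 0.16 for miR-200a and -0.12 ± 0.16 for miR-141. The widest 95% interval, that of miR-141, ran from -0.44 to 0.21. The groups overlapped for all 5 members, where 4.09% of all miRNAs tested did not.

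A ratio of 2 members within a library does not depend on how libraries are scaled, and 5 such ratios were tested in 4 comparisons by exact two-sided permutation tests, adjusted over the 20. miR-200c and miR-200b carry the same seed from different clusters. The miR-200c count was 0.466 ± 0.0303 (SD, n = 6) of the miR-200b count in APC normal mucosa and 0.759 ± 0.0764 (n = 5) in APC tumours. It was 0.525 ± 0.0476 (n = 7) in AOM-DSS normal mucosa and 0.764 ± 0.119 (n = 6) in AOM-DSS tumours. In both models every tumour lay above every normal library. The log2 difference was 0.70 ± 0.08 (SE) in the APC model (exact permutation p = 0.00216, adjusted 0.0108) and 0.53 ± 0.10 in the AOM-DSS model (exact permutation p = 0.000583, adjusted 0.0108).

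Within the cluster on chromosome 4, miR-429 gained on miR-200b in both models. Their ratio of counts was 1.31 ± 0.170 in APC normal mucosa and 1.76 ± 0.165 in APC tumours, and 1.57 ± 0.0783 against 1.95 ± 0.127 in the AOM-DSS model. The log2 differences were 0.43 ± 0.10 (exact permutation, adjusted p = 0.0186) and 0.31 ± 0.05 (exact permutation, adjusted p = 0.0108), and both pairs of groups overlapped. Within the cluster on chromosome 6, miR-141 lost against miR-200c. Their ratio was 0.945 ± 0.172 in APC normal mucosa and 0.558 ± 0.160 in APC tumours with no overlap, a log2 difference of -0.80 ± 0.25 (exact permutation, adjusted p = 0.0108). In the AOM-DSS model it was 0.645 ± 0.134 and 0.494 ± 0.0568, a log2 difference of -0.37 ± 0.13 (exact permutation, adjusted p = 0.0393) that did not pass in 9 omissions of 1 library (AOM-DSS normal 1, 2, 4, 6 or 7, or AOM-DSS tumour 1, 2, 3 or 4; adjusted p 0.0529 to 0.0653).

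The other 2 ratios did not pass in either model. The miR-141 to miR-200a ratio had log2 differences of 0.21 ± 0.15 in the APC model and 0.34 ± 0.15 in the AOM-DSS model (exact permutation, adjusted p = 0.266 and 0.0689), and it passed in the AOM-DSS model without AOM-DSS normal 6 (0.40, 0.0433) or AOM-DSS tumour 2 (0.42, 0.0281). The miR-200a to miR-200b ratio had -0.31 ± 0.16 and -0.17 ± 0.10 (exact permutation, adjusted p = 0.115 and 0.163).

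Such ratios separate tumour from normal often in these data. Among all 8778 ratios of the 133 miRNAs whose median count lay above the highest background, 41.4% did not overlap between APC tumours and normal mucosa and 33.8% did not in the AOM-DSS model, beside 2 of 5 and 1 of 5 ratios of members. A separation of this kind is therefore not particular to the family. Only 2 AOM-DSS tumours shared a cartridge with AOM-DSS normal mucosa, and over that cartridge the miR-200c to miR-200b difference was 0.53 at the smallest exact permutation p that its 9 libraries allow, 0.0278 (adjusted 0.0794).

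**Figure D4:**
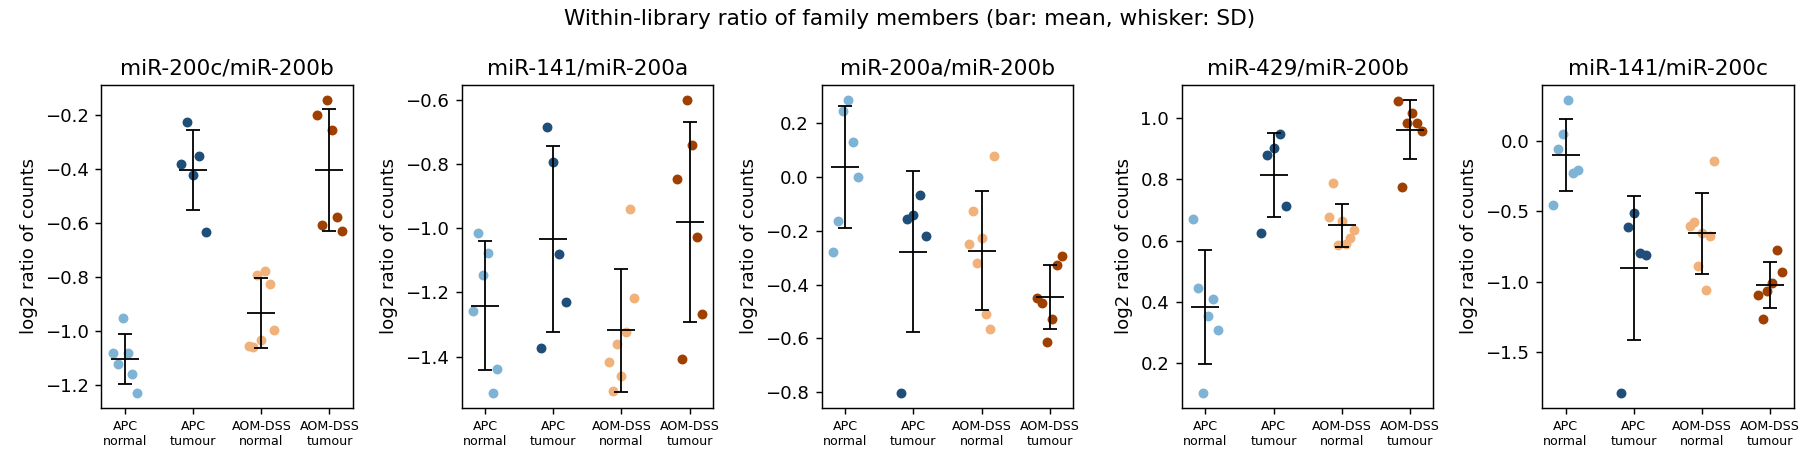
Log2 ratio of the counts of 2 members within each library (y axis) by group, for 5 ratios; points are libraries, bars the mean and whiskers the SD. The tumours of both models lie above the normal libraries in the miR-200c to miR-200b ratio, and APC tumour 1 lies lowest in the miR-141 to miR-200c ratio.

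By the permutation test the normal mucosa of the models differed in 2 of the 5 ratios. The share of all 8778 ratios that would pass that test was not computed, here or for tumours against normal mucosa. miR-429 stood higher against miR-200b in AOM-DSS than in APC normal mucosa, by 0.27 ± 0.08 on the log2 scale (exact permutation, adjusted p = 0.0175), and miR-141 stood lower against miR-200c, by -0.56 ± 0.15 (exact permutation, adjusted p = 0.0175). All 5 ratios overlapped in both of these comparisons, where 10% of the 8778 ratios did not in normal mucosa and 14% did not in tumours. No ratio passed between the tumours (exact permutation, adjusted p from 0.12 to 0.987), but 3 did so without 1 library: miR-200a to miR-200b and miR-141 to miR-200c without APC tumour 1 (-0.30 and -0.34, adjusted p = 0.0238 and 0.0381), and miR-429 to miR-200b without AOM-DSS tumour 2 (0.19, 0.0198). In normal mucosa the miR-200a to miR-200b ratio came to pass without APC normal 1 or AOM-DSS normal 7 (both -0.37, adjusted p = 0.0365 and 0.0379), and the miR-200c to miR-200b ratio without APC normal 3, APC tumour 1, or AOM-DSS normal 1 or 2 (0.17 to 0.20, adjusted p from 0.0325).

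By share of the family's own counts, the order of the probes was much the same in every group. miR-429 gave the most counts, 30.9% ± 4.30 (normal) and 36.9% ± 0.847 (tumour) in the APC model, and 36.8% ± 1.54 (normal) and 40.4% ± 0.723 (tumour) in the AOM-DSS model. miR-200c gave 10.95% ± 0.595 and 15.9% ± 1.76 in the APC groups and 12.4% ± 1.51 and 15.8% ± 1.89 in the AOM-DSS groups. miR-141 gave the fewest, from 7.76% ± 0.899 in AOM-DSS tumours to 10.3% ± 1.91 in APC normal mucosa, where its spread overlapped that of miR-200c. Probes can differ in binding, so this order describes counts and not molecules.

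Across the 24 libraries the members' log2 CPM followed neither cluster nor seed alone, as a description of libraries that share a scaling. Pearson's r was 0.78 between miR-200a and miR-200b, 0.78 between miR-200a and miR-141, and 0.72 between miR-429 and miR-200c. It was -0.10 between miR-200a and miR-200c, and 0.22 between the neighbours miR-200c and miR-141. After group means were subtracted, the pair miR-200b and miR-429 stood at 0.79, and the pair miR-200c and miR-141 at 0.25.

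The miRNAs whose levels were most like those of each member, out of 128 with a median count above the highest background, also differed between members. The nearest to miR-200c were miR-25 (r = 0.94), the shared probe of miR-20a and miR-20b (0.90) and miR-19b (0.89), all encoded in the miR-17 cluster or its paralogues, which are known to promote proliferation. After group means were subtracted, miR-125a-5p (0.73) and miR-125b-5p (0.70) took the places of miR-20a with miR-20b and of miR-19b. miR-25 rose by 0.73 ± 0.13 on the log2 scale in APC tumours (adjusted p = 2.4e-05) and by 1.09 ± 0.12 in AOM-DSS tumours (adjusted p = 4.48e-09), beside 0.35 and 0.66 for miR-200c. The nearest to miR-429 were miR-19a (0.83), miR-340-5p (0.75) and the shared probe of miR-106a and miR-17 (0.74).

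The nearest to miR-200a and miR-141 was miR-30e (0.77 and 0.63), a miRNA known to be high in epithelium. miR-30e fell by 0.98 on the log2 scale in APC tumours (adjusted p = 2.4e-05) and by 0.51 in AOM-DSS tumours (adjusted p = 0.0199). For miR-200a the next were let-7g (0.74) and miR-30a (0.64), and for miR-141 miR-1944 (0.57) and miR-1937c (0.54). The nearest to miR-200b were let-7g (0.79), let-7d (0.61) and miR-1937c (0.61). After group means were subtracted the nearest were let-7g for miR-200b (0.82), miR-532-5p for miR-200a (0.74), miR-340-5p for miR-429 (0.82), miR-25 for miR-200c (0.82) and miR-30e for miR-141 (0.83).

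Other miRNAs known to oppose epithelial-mesenchymal transition also went both ways. Of 15 measured in APC tumours, 3 rose and 6 fell, with a median log2 fold change of 0.27, where 9.24% of all miRNAs rose and 12.6% fell. miR-205, which shares the targets ZEB1 and ZEB2, rose by 2.61 ± 0.32 (adjusted p = 1.24e-06), while miR-30a fell by 0.99 (adjusted p = 6.04e-07). In AOM-DSS tumours 2 rose and 4 fell, with a median of -0.17, where 8.53% of all miRNAs rose and 8.53% fell, and miR-205 rose by 1.49 ± 0.29 (adjusted p = 0.000678). Of 6 miRNAs known to favour the transition, miR-21 rose (0.43 ± 0.15, adjusted p = 0.0409) and miR-10b fell (-2.37 ± 0.48, adjusted p = 0.000652) in APC tumours. The level of miR-10b was uneven in APC normal mucosa, from 314 to 3044 CPM, and in APC tumours it averaged 194 CPM, near the background. In AOM-DSS tumours miR-9 alone of these 6 passed, and it fell (-1.46 ± 0.20, adjusted p = 4.54e-07). The mean level of miR-9 in these tumours, 100 CPM, lay under the viral background, so the size of its fall is uncertain.

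The counts of markers below stand beside the same background. It was 9.24% of all miRNAs higher and 12.6% lower in APC tumours, and 8.53% each way in AOM-DSS tumours. Markers of intestinal epithelium moved in APC tumours. Of these, miR-192 and miR-194 were also on the list of miRNAs that oppose the transition, and they count in both lists. miR-192, miR-194 and miR-375, which are enriched in intestinal epithelial cells, all fell there, with log2 fold changes of -1.61, -1.70 and -2.16 (3 of 3 measured), and their summed level ran from 41017 to 58512 CPM in normal mucosa and from 12664 to 22027 CPM in tumours. In AOM-DSS tumours 1 of 3 fell, miR-194 by 0.37 (adjusted p = 0.0436), and the sums ran from 31376 to 49888 CPM in normal mucosa and from 27495 to 35022 CPM in tumours. Muscle markers fell in both models, 4 of 5 measured. Of 6 fibroblast markers, 2 rose in APC tumours, and 1 rose and 2 fell in AOM-DSS tumours, with summed levels of 21111 to 36008 CPM in normal and 26532 to 41838 CPM in tumour libraries of the APC model, and of 29363 to 37110 CPM against 18139 to 27748 CPM in the AOM-DSS model. Of 7 leukocyte markers, 1 rose and 1 fell in APC tumours, and 1 rose in AOM-DSS tumours. miR-223, a miRNA of neutrophils and other myeloid cells, was the marker that rose, by 1.25 ± 0.25 (adjusted p = 0.000257) and 0.74 ± 0.22 (adjusted p = 0.0199), and miR-142-5p, of blood cells, fell in APC tumours (-0.88 ± 0.14, adjusted p = 3.6e-06). The summed leukocyte level ran from 14046 to 28457 CPM in normal and from 16387 to 23572 CPM in tumour libraries of the APC model, and from 20243 to 40501 CPM against 18808 to 35951 CPM in the AOM-DSS model. Of 2 endothelial markers, miR-126-3p rose in APC tumours (0.43 ± 0.12, adjusted p = 0.00859), and neither passed in AOM-DSS tumours. Of 3 erythrocyte markers, miR-486 fell in APC tumours (-0.84 ± 0.24, adjusted p = 0.00676), and none passed in AOM-DSS tumours. No marker probe of these lists was at 0 in any library, but some lay under the viral background. In APC tumours this held for miR-486 (mean 73.3 CPM), miR-1 (111 CPM) and miR-133a (116 CPM). In AOM-DSS tumours the mean of miR-133a (134 CPM) also lay under the viral background, and that of miR-1 (158 CPM) lay near it. The sizes of these falls are thus uncertain. The part of the markers in the changes of the miR-200 family was not tested.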

How the data were processed

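Raw counts per probe deposited by the authors (24 libraries, 3 cartridges per the file headers) were the base. The authors' deposited value table, a scaled signal of unknown basis (each column a raw column times 1 factor, with 33 values of 0 set to 1), named each raw column's library and gave an alternative. The labels and headers name no software for either table. In R 4.3.3 with edgeR 4.0.16, filterByExpr (min.count 10) kept 563 of 566 miRNAs; TMM scaling and 1 robust quasi-likelihood fit over 4 groups followed, with Benjamini-Hochberg adjustment over all 563 and a threshold of 0.05. Ratios were tested by exact permutation over all arrangements of the libraries, in Python 3.11.15. On simulated data a fit recovered 90% of 200 miRNAs changed in the APC comparison, among 563 miRNAs. The raised ones had a median log2 fold change of 0.965. Recovery at the smaller sizes seen for the members was not tested. Named miRNAs were the 5 members, the 3 most alike to each in log2 CPM, and up to 4 per list by smallest p; members and lists were chosen with earlier results of these data known. Replicates differed by more than counting noise. Normal and tumour libraries of the same number were little correlated (-0.323 to 0.116). This cannot settle whether they came from 1 animal, and the main fit did not pair them. Raw columns of no sample numbered 0. Alternatives changed the scaling, filter, background, tool, block and cartridge (limma 3.58.1, DESeq2 1.42.0); 3 of them were chosen after seeing the data.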

Additional observations from a re-analysis of the deposited data

Results flagged for a closer look

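Of 40 checks of a library against its own group, 3 stood out, where chance alone gives about 1 in 20. In APC tumour 1, the second shallowest library, the log2 ratio of miR-200a to miR-200b was -0.803, while the other APC tumours lay between -0.220 and -0.0666. In the same library the log2 ratio of miR-141 to miR-200c was -1.79, while the other APC tumours lay between -0.813 and -0.514. In AOM-DSS tumour 2 the log2 ratio of miR-429 to miR-200b was 0.776, while the other AOM-DSS tumours lay between 0.960 and 1.06.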

How the results depend on the processing

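Values are log2 fold changes, or log2 differences of ratios, under alternatives and 24 omissions of 1 library. Alternatives numbered 15 for members in tumours against normal mucosa, 14 for the differences and for comparisons between models, and 4 or 5 for ratios. The causes of the changes listed were not tested. Under the alternatives the fall of miR-200a in APC tumours kept its call in 12 of 15, and the rise of miR-200c in AOM-DSS tumours in 14 of 15. Depth limits AOM-DSS normal 7 and APC tumour 1 most.

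With RLE size factors, miR-200b and miR-200c no longer passed in APC tumours (-0.36 and 0.34), nor miR-429 in AOM-DSS tumours (0.36), nor miR-200b between normal mucosas (-0.41). With a filter at the viral background, miR-200b no longer passed in APC tumours (-0.21), and the difference of effects came to pass for miR-200a and miR-141 (0.51 and 0.63). There 35 of 226 miRNAs passed between normal mucosas, and between tumours miR-200b and miR-200c turned sign (both -0.04). With the viral background subtracted, miR-200b no longer passed in APC tumours (-0.19), the difference came to pass for miR-141 (0.66), and miR-200b and miR-200c turned sign between tumours (-0.05 and -0.04). With only the groups compared in the fit, miR-200b and miR-200c no longer passed in APC tumours (-0.36 and 0.33), nor miR-200b between normal mucosas (-0.40). Without a filter on low counts, miR-200c no longer passed (0.29) and miR-141 came to pass (-0.47) in APC tumours. There miR-429 no longer passed (0.30) and miR-200b turned sign (-0.00) in AOM-DSS tumours, and miR-200b no longer passed between normal mucosas (-0.36). With the DESeq2 Wald test the difference of effects of miR-141 came to pass (0.65).

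Scaled to the 4 mRNA probes, 74 miRNAs passed in APC tumours, and miR-200b, miR-200a and miR-200c did not (-0.31, -0.60 and 0.41). In AOM-DSS tumours miR-200c no longer passed (0.16), miR-200a came to pass (-0.58), and miR-200b, miR-429 and miR-141 turned sign (-0.38, -0.08 and -0.24). The difference of effects turned sign for miR-200b, miR-429 and miR-200c (-0.08, -0.23 and -0.25). Between normal mucosas 4 miRNAs passed, and miR-200b, miR-200a and miR-141 did not (-0.32, -0.63 and -0.71). Between tumours miR-200b, miR-429 and miR-200c turned sign (-0.39, -0.27 and -0.40). With this scaling the median of all miRNAs was -0.40 in AOM-DSS tumours, -0.46 in the difference of effects and -0.40 between tumours. Scaled to the 100 highest miRNAs, miR-200b no longer passed in APC tumours (-0.20), the difference came to pass for miR-141 (0.63), and miR-200b and miR-200c turned sign between tumours (both -0.02). With totals that left out miR-720, miR-143 and miR-145, miR-200b no longer passed in APC tumours (-0.25), and the difference came to pass for miR-200a and miR-141 (0.57 and 0.68). With limma on the authors' scaled values, miR-200b and miR-200a no longer passed in APC tumours (-0.09 and -0.41), nor miR-200b between normal mucosas (-0.29). There miR-200a turned sign in AOM-DSS tumours (0.02), miR-200b and miR-200c did so between tumours (both -0.00), and 32 miRNAs passed between tumours.

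With unadjusted library totals, an alternative chosen after seeing the data, 378 miRNAs passed in APC tumours, miR-429 came to pass (0.76), and miR-200b, miR-200a and miR-141 turned sign (0.34, 0.00 and 0.23). In AOM-DSS tumours miR-200b and miR-141 came to pass (0.36 and 0.53) and miR-200a turned sign (0.19). The difference of effects turned sign for miR-429 and miR-200c (-0.09 and -0.14), with 61 miRNAs passing and a median of all miRNAs of -0.35. Between normal mucosas 41 miRNAs passed, miR-200b did not (-0.16) and miR-429 turned sign (0.11), and between tumours miR-200b and miR-200c turned sign (both -0.14). Without both shallowest libraries, also chosen after seeing the data, miR-141 came to pass in AOM-DSS tumours (0.33) and in the difference of effects (0.58), where 59 miRNAs passed. There 29 miRNAs passed between normal mucosas, as did the miR-200a to miR-200b ratio (-0.37). Between tumours that ratio and miR-141 to miR-200c came to pass (-0.30 and -0.34), and miR-141 to miR-200a turned sign (-0.03).

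As a share of the counts outside miR-720, miR-143 and miR-145, likewise added later, the family's tumour minus normal difference turned sign in the APC model, from 2.17 to -0.63 percentage points, and was 2.14 and 1.85 in the AOM-DSS model.

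With cartridge 3 as a term, 60 miRNAs passed in AOM-DSS tumours, miR-429 did not (0.51) and miR-200a turned sign (0.06). There 18 miRNAs passed in the difference of effects and 16 between tumours, where miR-200a turned sign (0.01). Without cartridge 3, miR-200b and miR-200c no longer passed in APC tumours (-0.33 and 0.37), nor miR-200b between normal mucosas (-0.41). In AOM-DSS tumours 58 miRNAs passed, miR-429 did not (0.47) and miR-200a turned sign (0.02). There the ratios of miR-200c and miR-429 to miR-200b and of miR-141 to miR-200c did not pass (0.53, 0.27 and -0.52). Without cartridge 3, 17 miRNAs passed in the difference of effects and 10 between tumours, where the ratios of miR-200c to miR-200b and miR-141 to miR-200a turned sign (-0.00 and -0.10).

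Whether same-numbered normal and tumour libraries came from 1 animal is not stated. With the replicate block, miR-200b and miR-200c did not pass in APC tumours (-0.30 and 0.37), nor miR-429 in AOM-DSS tumours (0.42), and the difference of effects came to pass for miR-141 (0.80). Within the replicate block, sign permutation of 5 or 6 pairs could not pass after adjustment for any ratio (adjusted p 0.156 or more). There miR-200c to miR-200b was at 0.67 and 0.52, miR-429 to miR-200b at 0.42 and 0.31, and miR-141 to miR-200c at -0.83 and -0.28, in the APC and AOM-DSS models.

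Over the omissions of 1 library, in APC tumours miR-200b ran from -0.40 to -0.31, miR-200c from 0.30 to 0.42 and miR-141 from -0.51 to -0.24. In AOM-DSS tumours miR-200b ran from -0.00 to 0.16, miR-429 from 0.30 to 0.46, and the difference of effects of miR-141 from 0.52 to 0.78. Between normal mucosas miR-200b ran from -0.46 to -0.32, miR-429 from -0.20 to 0.02, and the count of miRNAs from 8 to 21. Between tumours miR-200b ran from -0.02 to 0.10 and the count from 28 to 52. Ratios in AOM-DSS tumours ran from -0.43 to -0.28 for miR-141 to miR-200c and from 0.26 to 0.42 for miR-141 to miR-200a. Between normal mucosas they ran from -0.37 to -0.26 for miR-200a to miR-200b and from 0.14 to 0.20 for miR-200c to miR-200b. Between tumours they ran from -0.03 to 0.14 for miR-141 to miR-200a, from -0.30 to -0.12 for miR-200a to miR-200b, from -0.34 to -0.02 for miR-141 to miR-200c, from -0.06 to 0.05 for miR-200c to miR-200b and from 0.10 to 0.19 for miR-429 to miR-200b.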
